A study of Homo sapiens with 31 samples.

Results

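Ribosome footprints were compared between EIF4A1 knockout (KO) and naive HEK293 T-REx cells while mTOR was inhibited. HEK293 T-REx cells derive from human embryonic kidney and carry a repressor that lets a transgene be switched on. The comparison used 4 of the 31 libraries of the series. These were EIF4A1 KO and naive cells after 30 min of PP242 at 1 µM, and the same lines after 30 min at 10 µM, with 1 library for each line and dose. They were chosen by their labels, and each KO library was paired with the naive library of its dose. All 4 libraries carried the drug, so that the comparison is of levels during inhibition and not of the response to it. EIF4A1 KO and naive DMSO libraries (2 each), EIF4A1 KO and naive RNA-seq libraries, for which no treatment is named (2 each), and EIF4A2 KO libraries in DMSO (2) and at both PP242 doses (1 each) were set beside them. Pulldown and input libraries of cells expressing eIF4A1 or eIF4A2 with a streptavidin-binding peptide (SBP) gave values by which transcripts were grouped or described. Inputs of SBP-eIF4A1 cells after 72 h of control or LARP1 siRNA did too. The labels do not say how many clones each KO line stands for. A difference between lines that arose apart from EIF4A1 therefore cannot be told apart from a difference due to its loss.

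eIF4A1 is a DEAD-box RNA helicase and the main helicase of eIF4F, the complex that binds the 5′ cap and prepares an mRNA for the small ribosomal subunit. eIF4A2 is its close paralog. PP242 is an ATP-competitive inhibitor of the mTOR kinase. When mTORC1 is inhibited, 4E-BP proteins sequester the cap-binding protein eIF4E, and LARP1 binds mRNAs that begin with a 5′ terminal oligopyrimidine (TOP) tract, most of which encode ribosomal proteins and elongation factors. Ribosome profiling sequences the RNA fragments that ribosomes shield from nuclease, so the count on a coding region follows both the amount of the mRNA and the number of ribosomes on it.

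The files list counts by Ensembl transcript and do not pair transcripts with genes, and no table used here does so. Transcripts are therefore named by identifier, no list of genes was matched, and no sequence or genome position is given. Transcripts of EIF4A1 and markers of the cell line could not be looked up, so genotype and cell type rest on the labels, and EIF4A1 may be among the transcripts described by identifier. After rows with equal counts in all files had been collapsed and 1 transcript kept per locus, the 4 libraries held 2686678 (naive, 10 µM) to 6420290 counts (EIF4A1 KO, 10 µM). At 1 µM the depths were nearly equal, 3990382 counts in naive and 3982507 in EIF4A1 KO cells. The 10 most abundant transcripts held 3.65% to 3.91% of the counts. Libraries of one line differed less than libraries of different lines. Over transcripts with a mean of at least 20 counts, chi-square per degree of freedom, which is near 1 for pure sampling noise, was 1.66 for the naive pair and 1.84 for the EIF4A1 KO pair. It was 4.92 to 6.93 for the pairs across lines. Values are shares of a library, so a change common to all transcripts is not seen, and fewer cells with a transcript cannot be told apart from less of it per cell.

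Under PP242, 1236 of 18510 transcripts differed between the lines. Footprints were higher in EIF4A1 KO cells for 685 transcripts and lower for 551, by edgeR's quasi-likelihood test with the dose as a term (adjusted p under 0.05, Benjamini-Hochberg). The calls were 6.68% of the transcripts tested. Most differences were moderate. The median absolute log2 difference among the calls was 0.58, and 131 transcripts were higher and 96 lower by more than 1 log2 unit. All 1236 had the same sign at both doses. The calls came from these same 4 libraries paired by dose, so this is no separate check of the doses. With 1 residual degree of freedom for each transcript the count depends on the method. DESeq2's Wald test on the same 4 libraries called 139, of which 77 were higher and 62 lower, and edgeR without the dose term called 2005.

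In each direction, 2 transcripts are given by identifier. They are the ones with the largest difference among 853 called transcripts. These had a mean of at least 5 log2 CPM and the same sign at both doses. CPM is a count relative to the library's total, here scaled by TMM. The mean is edgeR's average over the 4 libraries, so a transcript high in 1 line alone could pass. ENST00000323963.10 had the largest difference upward. It stood at 64.1 CPM in naive cells at 1 µM and 102.2 at 10 µM, and at 418.8 and 418.7 CPM in EIF4A1 KO cells. Both KO libraries lay above both naive libraries, as they did for 26.6% of all 18510 transcripts. The transcript was chosen by its difference in these same libraries. It was 5.14-fold higher in EIF4A1 KO cells (log2 difference 2.36, SE 0.13, edgeR adjusted p 4.53e-08). In DMSO it was already at 737.7 and 708.5 CPM in EIF4A1 KO cells, against 160.4 and 131.8 in naive cells. In EIF4A2 KO cells it was lower than in either other line, at 61.4 and 62.7 CPM in DMSO, 38.4 at 1 µM and 41.2 at 10 µM. Its mRNA was at 607.4 and 606.9 CPM in EIF4A1 KO and 305.2 and 306.6 in naive cells. In the input libraries of the pulldowns it was at 1064 and 1085 CPM in cells expressing tagged eIF4A2 and at 329.1 and 334.5 CPM in cells expressing tagged eIF4A1. The footprint difference under PP242 exceeded that of the untreated mRNA by 1.39 log2 units (SE 0.11, edgeR adjusted p 3.82e-16).

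ENST00000224784.10, the second highest, was less abundant. It stood at 12.6 CPM in naive cells at 1 µM and 13.6 at 10 µM, from 53 and 38 counts, and at 41.03 and 46.9 CPM in EIF4A1 KO cells. The lines did not overlap in this transcript, which was chosen by the same values. Its naive values lay below 5 log2 CPM, so it passed that threshold only through its EIF4A1 KO values. The difference was 3.33-fold (log2 1.74, SE 0.16, edgeR adjusted p 2.03e-05). The difference was of like size in DMSO (log2 1.45) and in RNA-seq (log2 1.39). Its footprints exceeded its mRNA difference by 0.36 (SE 0.21), which did not pass (edgeR adjusted p 0.368).

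ENST00000371959.7 was the lowest. It had 80.5 CPM in naive cells at 1 µM and 51.4 at 10 µM, and 8.96 and 6.76 CPM in EIF4A1 KO cells, from 38 and 46 counts. Its EIF4A1 KO values lay below 5 log2 CPM, so it passed that threshold only through its naive values. It was 8.29-fold lower in EIF4A1 KO cells (log2 -3.05, SE 0.16, edgeR adjusted p 4.16e-08). Its mRNA differed more than its footprints: RNA-seq gave 4.79 and 4.54 CPM in EIF4A1 KO cells against 104.8 and 101.4 in naive cells, a log2 difference of -4.48. Footprints under PP242 thus stood 1.29 log2 units above what the untreated mRNA gives (SE 0.25, edgeR adjusted p 0.000212). In DMSO too its footprints differed less than its mRNA, with a log2 difference of -2.66. A second transcript has identical counts in every file and cannot be separated from it.

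ENST00000293831.13 was the most abundant of the 4. It stood at 1995 CPM in naive cells at 1 µM and 1932 at 10 µM, and at 407.9 and 382.6 CPM in EIF4A1 KO cells. It was 4.99-fold lower (log2 -2.32, SE 0.084, edgeR adjusted p 5.98e-10). Its level in DMSO was 506.4 and 597.1 CPM in EIF4A1 KO cells against 2597 and 2675 in naive cells. In EIF4A2 KO cells at PP242 it was 1714 CPM at 1 µM and 1702 at 10 µM, near the naive level. In the pulldown inputs it was at 3007.5 and 3032.7 CPM in cells with tagged eIF4A1 and at 1995 and 2046 CPM in cells with tagged eIF4A2. The mRNA was lower by 1.13 log2 units, and the footprints fell below that by a further 1.20 (SE 0.079, edgeR adjusted p 1.48e-19).

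**Figure D1:**
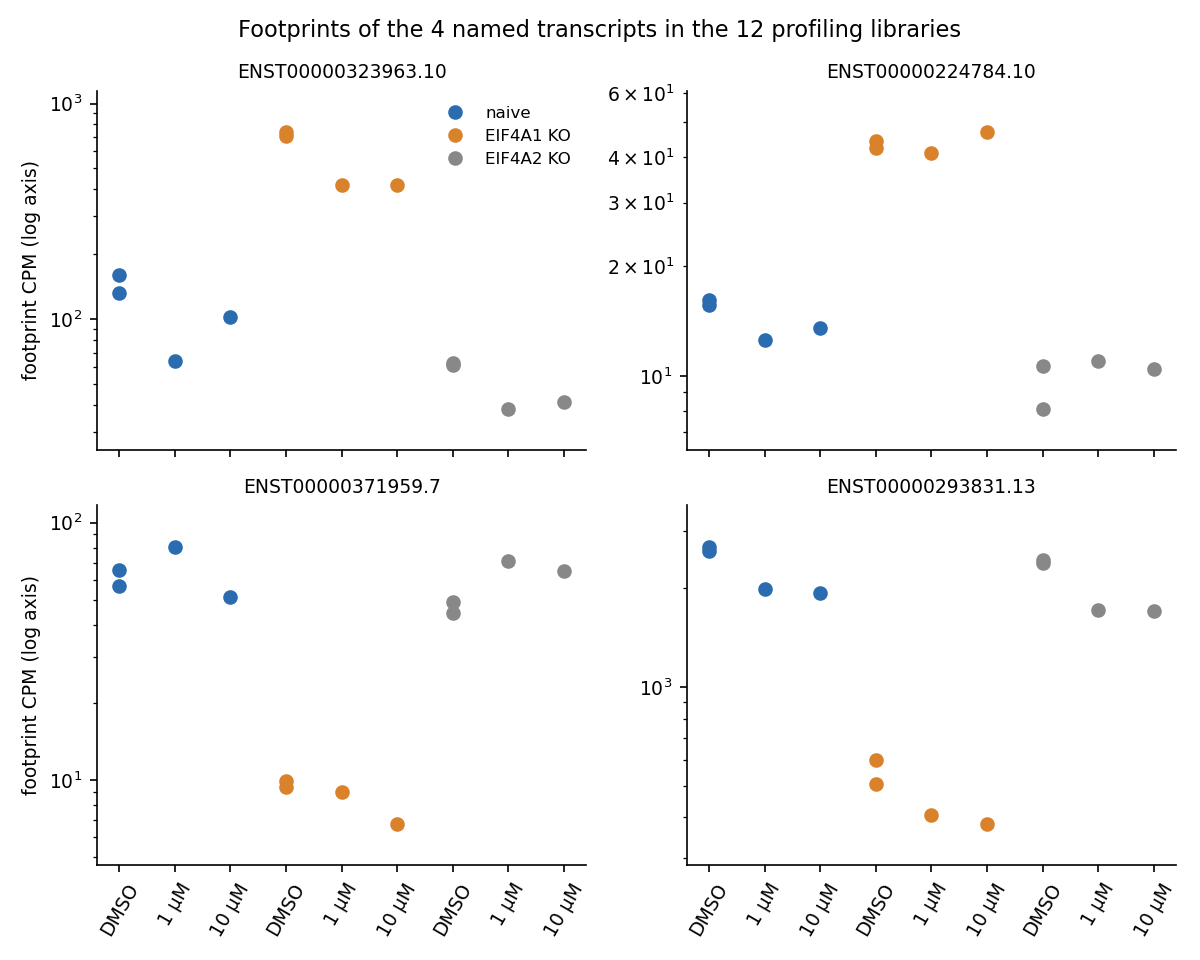
Footprints of the 4 named transcripts in all 12 profiling libraries, in CPM on a log axis, with 1 point per library and colours for the 3 lines. EIF4A1 KO points lie above naive points in the upper panels and below them in the lower panels, in DMSO and at both doses.

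Of the 10 largest differences in each direction under the same rule, those upward ranged from 1.12 to 2.36 log2 units and those downward from -3.05 to -1.13. All 20 had the same sign in DMSO and were called there too, where 12.2% of all transcripts were called higher and 12.9% lower. In RNA-seq, 18.1% of all transcripts were called higher and 18.4% lower. There all 10 upward and 9 of the 10 downward transcripts differed in the same direction and were called. The exception was a short counted region whose footprints were lower by 2.07 while its mRNA was higher by 1.69 log2 units. It was singled out after its values were seen. It and 2 others of the 10 downward transcripts lie within 11 distinct rows of ENST00000293831.13 in the files, so some of the 10 may stand for 1 locus.

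The 2 doses gave like differences between the lines. Among the 6080 transcripts with a mean of at least 5 log2 CPM, the difference at 1 µM and that at 10 µM, which share no library, correlated across transcripts with a Pearson r of 0.68 (Spearman rho 0.62). Over all 18510 transcripts r was 0.39. Transcripts share libraries and are not independent, and the correlations carry no p-value. The lower value over all transcripts goes with low counts. Below 2 log2 CPM the 2 doses lay a median of 0.63 log2 units apart and 1.86% of 1993 transcripts were called. Above 8 log2 CPM they lay 0.11 apart and 19.5% of 698 were called. A difference of a given size was therefore less often detectable among scarce transcripts.

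**Figure D2:**
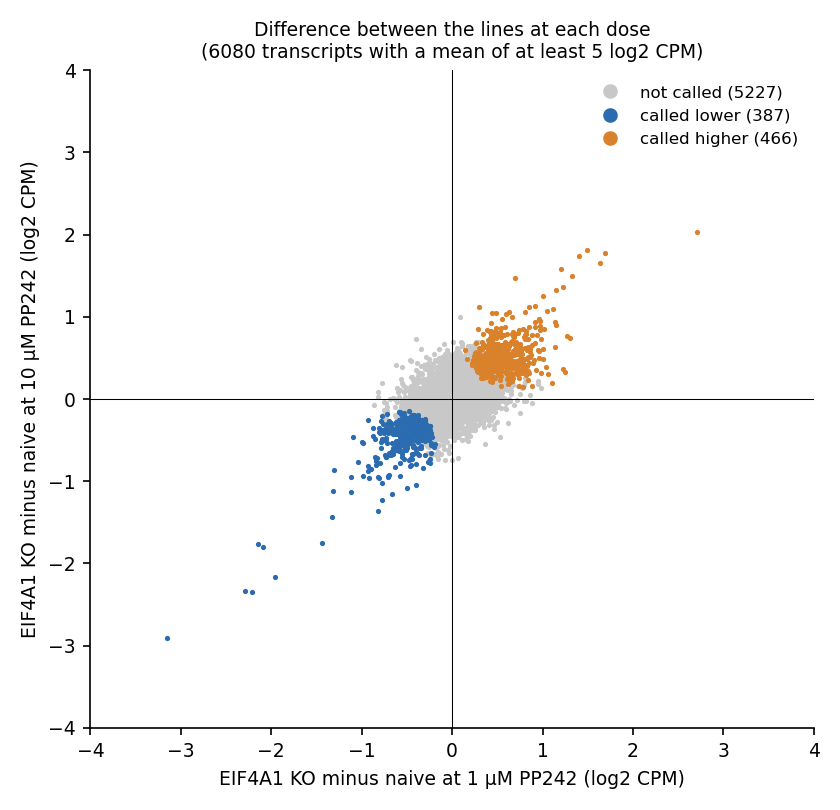
Difference between EIF4A1 KO and naive cells at 1 µM PP242 (x axis) and 10 µM PP242 (y axis) in log2 CPM, for the 6080 transcripts with a mean of at least 5 log2 CPM. The 466 called higher lie in the upper right and the 387 called lower in the lower left.

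Differences under PP242 were mostly present without the drug. Of 677 transcripts called higher under PP242 and also tested in DMSO, 396 (58.5%) were called higher in DMSO, and 12.4% of all transcripts tested in both were. In all, 2202 of the transcripts tested in both were called higher in DMSO. Of 548 called lower, 323 (58.9%) were called lower in DMSO against 13.0% of all transcripts, and they are 14.0% of the 2308 called lower there. Calls of opposite sign numbered 45 and 10. At the RNA level, 514 of 683 transcripts with higher footprints (75.3%) and 372 of 548 with lower footprints (67.9%) were called in the same direction, against 23.0% and 19.6% of all transcripts. The DMSO, RNA-seq and PP242 libraries are separate libraries of the same cell lines. Across the 6080 abundant transcripts the difference under PP242 correlated at r = 0.53 with that in DMSO and at r = 0.58 with that of RNA.

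Footprints beyond mRNA were tested as the difference under PP242 minus the difference of untreated RNA, with both doses of a line as replicates. Of 25417 transcripts, 1464 (5.76%) were called by edgeR, 617 with higher and 847 with lower footprints for their mRNA in EIF4A1 KO cells. The majority direction rested on single libraries: without the naive 1 µM library 788 were called, 415 higher and 373 lower. RNA was not measured under PP242, so a change of mRNA within 30 min of the drug would enter these values. No such test was run on the DMSO footprints, so these calls cannot be read as particular to PP242.

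Fewer transcripts separated the lines under PP242 than in DMSO, where edgeR called 4549 of 18122 (25.1%). The depths differ, and the DMSO fit had 2 libraries of one condition per line, so the 2 counts cannot be set against each other directly. The difference between treatments was tested in a fit of the 8 libraries, in which both doses of a line were treated as replicates. Of 19223 transcripts, 1256 (6.53%) were called, 760 with a higher and 496 with a lower EIF4A1 KO minus naive difference under PP242 than in DMSO. The 760 had a median difference of -0.60 log2 CPM in DMSO and 0.21 under PP242. For 575 of them the sign differed between treatments. The 496 had a median of 0.40 in DMSO and -0.16 under PP242. These medians and signs come from the same values that chose the 760 and the 496, so they describe the calls only. DESeq2's Wald test called 538. PP242 at 1 µM alone gave 1426 calls and at 10 µM alone 618, and with 1 library per line at each dose the dose cannot be told apart from the library and its depth. Leaving out naive DMSO replicate 2, EIF4A1 KO DMSO replicate 1 or 2, the naive 1 µM library or the EIF4A1 KO 1 µM library gave 754, 616, 787, 799 and 727 calls.

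The transcripts most sensitive to PP242 were next followed in the 4 libraries. To choose them without the lines compared, the EIF4A2 KO libraries were used: 280 transcripts fell by more than 1 log2 unit and were called between DMSO and PP242 at either dose (edgeR, 4 libraries). They are called the PP242-sensitive set, and both doses were treated as replicates in choosing them. Of 19254 transcripts tested there, 8.38% were called as falling and 4.95% as rising. The set's median change in EIF4A2 KO cells was -1.51 log2 units, which is the measure that chose its members. The members nearest the threshold stood at -1.002 inside and -0.999 outside it.

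In naive and EIF4A1 KO cells the set ended at similar levels under PP242. Against the mean of the naive DMSO libraries, naive cells had a median set level of -1.49 log2 CPM at 1 µM and -1.23 at 10 µM. The median level for EIF4A1 KO was -1.22 at 1 µM and -1.25 at 10 µM. The naive 1 µM library was the lowest of the 4, and the other 3 lay between -1.25 and -1.22. The EIF4A1 KO libraries started lower, at -0.27 and -0.29 in DMSO. As a share of all counts, the set took 13.7% and 13.9% in naive DMSO and 12.1% and 11.9% in EIF4A1 KO DMSO. Under PP242 it took 4.81% (naive) and 6.17% (EIF4A1 KO) at 1 µM, and 5.57% and 5.76% at 10 µM.

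**Figure D3:**
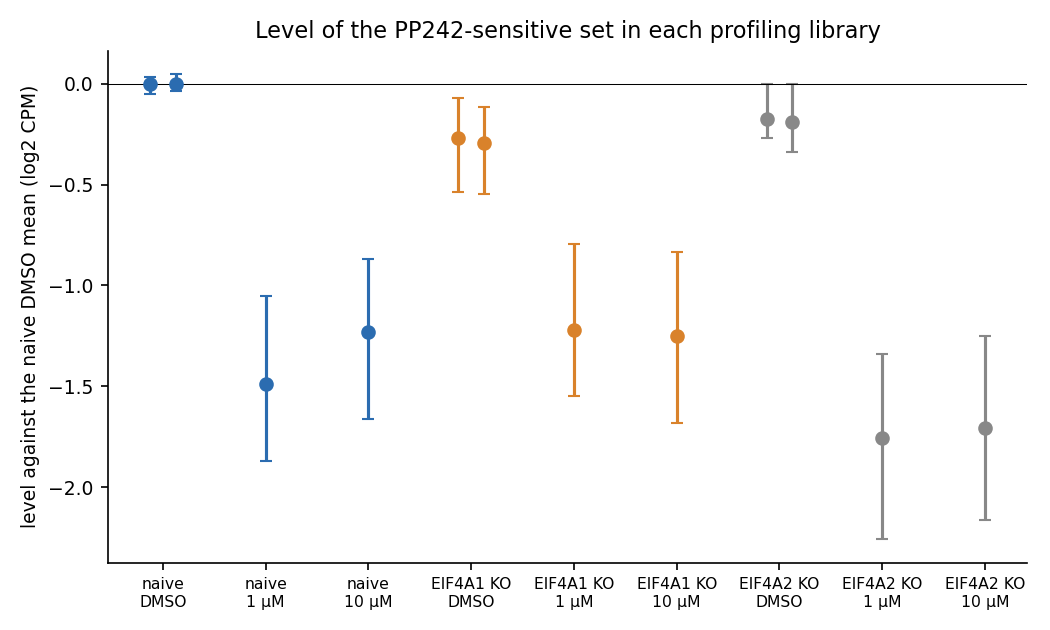
Level of the PP242-sensitive set in each of the 12 profiling libraries against the naive DMSO mean (log2 CPM). Points are medians over 261 members and bars run from the first to the third quartile. EIF4A1 KO cells start below naive cells in DMSO, as EIF4A2 KO cells do. EIF4A1 KO cells reach -1.22 and -1.25 under PP242, against -1.49 and -1.23 in naive cells.

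Most set members were higher in EIF4A1 KO than in naive cells at 1 µM, and about as many were higher as lower at 10 µM. The difference between the doses was not tested. Of the 280, 261 passed the filter on low counts. Their median EIF4A1 KO minus naive difference was 0.30 log2 CPM at 1 µM, with 209 above 0, and 0.03 at 10 µM, with 140 above 0. The medians of all 18510 transcripts were -0.01 and 0.01. Averaged over the doses the set's median was 0.17, and members ranged from -0.92 to 1.54. Of the 261 members, 39 were called higher and 2 lower by edgeR, 14.9% and 0.77%, where 3.70% and 2.98% of all transcripts were called. The set was abundant, with a median of 6.32 log2 CPM, and of the 6080 abundant transcripts 7.66% were called higher and 6.37% lower. DESeq2 called 9 members higher and 0 lower. With no filter all 280 were fitted, and 59 were called higher and 3 lower, where 3.11% and 2.7% of all transcripts were. Single libraries moved the set's median in both directions. In the edgeR fit it was 0.16, and without the naive 1 µM library it was 0.05. Without the naive 10 µM library it was 0.26, and without the EIF4A1 KO 10 µM library 0.21. Refits without 1 library had no dose term, so the lines were not paired by dose in them. All 4 libraries without the dose term gave 0.16, with 57 members called higher and 5 lower. In 114 members (43.7%) both EIF4A1 KO values were above both naive values and in 37 (14.2%) both were below, against 26.6% and 26.0% of all transcripts.

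In DMSO the same members were lower in EIF4A1 KO cells. Their median difference was -0.29 log2 CPM, 4 of 256 were called higher and 140 lower, and 12.2% and 12.9% of all transcripts were called in those directions. At the RNA level their median difference was -0.06, with 41 of 254 called higher and 94 lower, where 18.1% and 18.4% of all transcripts were. More of the abundant transcripts were called: of the 6080, 1445 were higher and 1189 lower in DMSO. In RNA-seq 2012 of the 6080 were higher and 1552 lower. The change of the difference between treatments was called for 126 of 269 members upward and for 0 downward by edgeR, where 3.95% and 2.58% of all transcripts were. Its median over the set was 0.43 log2 units, and 238 of 269 were above 0. DESeq2 called 91 upward and 0 downward. With no filter edgeR called 127 of all 280 upward, where 2.36% of all transcripts were called upward and 1.28% downward. At 1 µM alone 149 of 273 were called upward, against 4.33% of all transcripts upward and 2.82% downward. At 10 µM alone 67 of 271 were, against 1.86% and 1.23%, so that members were called at each dose with the DMSO libraries in common. Without the naive 1 µM library 83 were called. Beyond untreated mRNA, footprints under PP242 were called higher for 66 of 280 members and lower for 0, where 2.43% and 3.33% of all transcripts were, with a median of 0.22. Of the 6080 abundant transcripts, 345 were called higher and 640 lower beyond untreated mRNA. The change between treatments was called upward for 476 of the 6080 and downward for 429.

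**Figure D4:**
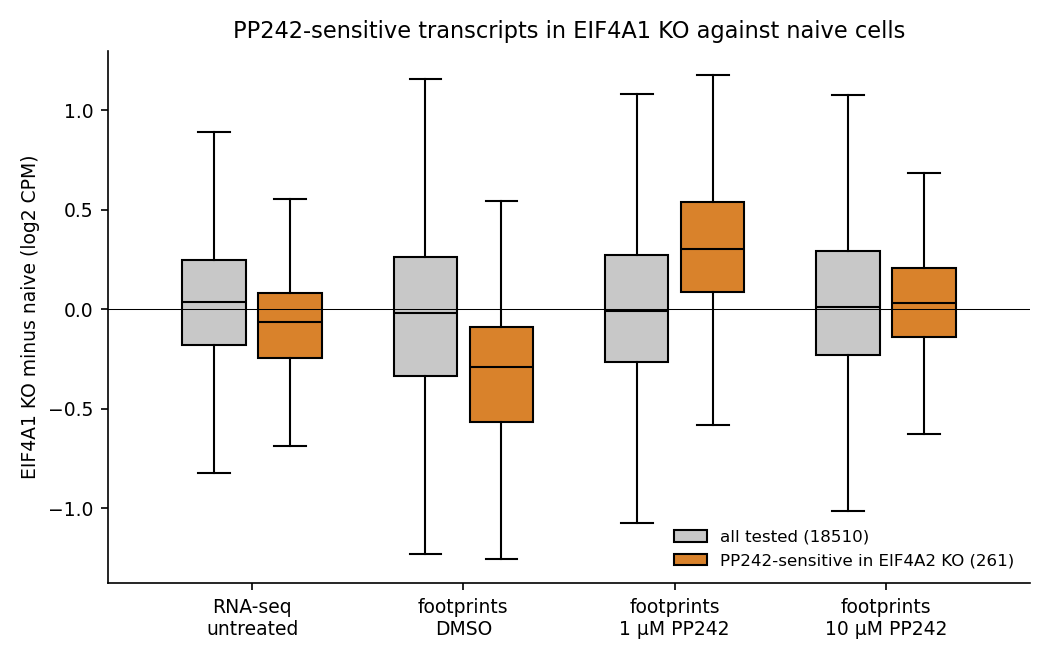
EIF4A1 KO minus naive difference (log2 CPM) of all 18510 transcripts (grey) and of the 261 members of the PP242-sensitive set (orange) in RNA-seq, in DMSO footprints and in footprints at each dose. Boxes span the quartiles, lines are medians and whiskers reach 1.5 times the box; points beyond are not drawn. The set's median is -0.29 in DMSO, 0.30 at 1 µM and 0.03 at 10 µM.

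The wider list of all 1613 transcripts called as falling in EIF4A2 KO cells includes the set. Of 1594 that passed the filter, 154 were called higher (9.66%) and 73 lower (4.58%) in EIF4A1 KO cells under PP242. These shares stand beside 3.70% and 2.98% of all transcripts and 7.66% and 6.37% of the abundant ones. Their median difference was 0.11 at 1 µM and -0.02 at 10 µM, against -0.21 in DMSO. The 953 transcripts called as rising in EIF4A2 KO cells had medians of opposite sign at 1 µM and in DMSO and of the same sign at 10 µM. Of 943 that passed, 42 were called higher (4.45%) and 80 lower (8.48%), with a median of -0.08 at 1 µM, -0.02 at 10 µM and 0.18 in DMSO. The change between treatments was called upward for 377 and downward for 7 of 1602 falling transcripts, and upward for 5 and downward for 187 of 948 rising ones, where 3.95% and 2.58% of all transcripts were called. Of the 6080 abundant transcripts it was called upward for 476 and downward for 429.

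Length and capture with eIF4A1 were then examined as features that the choice of libraries had not used. The 6080 abundant transcripts were ranked and split into 5 equal groups of 1216 by the length of the counted region, whose unit the files do not state. In DMSO the median EIF4A1 KO minus naive difference ran from -0.12 log2 CPM in the shortest group to 0.25 in the longest. Under PP242 it ran from -0.02 to 0.01 at 1 µM and from -0.06 to 0.09 at 10 µM. In untreated RNA-seq it ran from -0.05 to 0.14. Across these transcripts the Spearman rho with length was 0.40 in DMSO, 0.24 in RNA-seq and 0.10 under PP242. Calls under PP242 were 73 higher and 82 lower in the shortest group, and 112 higher and 60 lower in the longest, where 7.66% and 6.37% of the 6080, or 466 and 387, were called. The PP242-sensitive set was short, with a median length of 136 against 262 for all tested transcripts and 436 for the 6080 abundant ones.

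Capture was measured as the log2 ratio of pulldown to input from cells that express eIF4A1 with a streptavidin-binding peptide (SBP). In 5 such groups by this enrichment, the median difference in DMSO ran from 0.23 in the least enriched group to -0.17 in the most enriched. At 1 µM PP242 it ran from -0.03 to 0.02 and at 10 µM from 0.04 to -0.04. Across the 6080 transcripts the Spearman rho between enrichment and the difference under PP242 was -0.0083. Calls in the most enriched group were 82 higher and 56 lower, and in the least enriched 111 higher and 88 lower, or 6.74% and 4.61% against 9.13% and 7.24%, where 7.66% and 6.37% of the abundant transcripts were called. Transcripts of the PP242-sensitive set had a median enrichment of 0.63 with SBP-eIF4A1 and -0.12 with SBP-eIF4A2, against -0.12 and -0.18 for all tested transcripts. The 6080 abundant transcripts had medians of -0.34 and -0.50, so the set stood above them with both proteins.

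**Figure D5:**
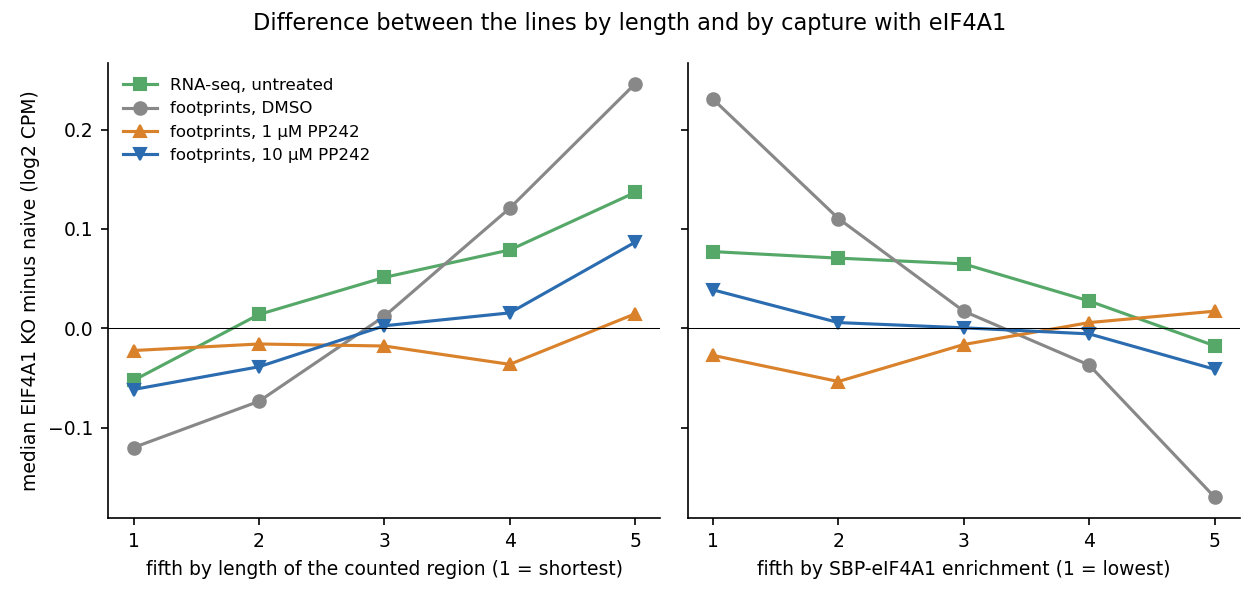
Median EIF4A1 KO minus naive difference (log2 CPM) in 5 equal groups of 1216 abundant transcripts, by length of the counted region (left) and by enrichment with SBP-eIF4A1 (right). Lines are untreated RNA-seq, DMSO footprints and footprints at each PP242 dose. The DMSO line runs from -0.12 to 0.25 over length and from 0.23 to -0.17 over enrichment, and the PP242 lines stay between -0.06 and 0.09.

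The EIF4A2 KO libraries show whether a difference from naive cells under PP242 was also one from the paralog knockout. That comparison shares the EIF4A1 KO libraries, so values are only placed side by side. Between EIF4A1 KO and EIF4A2 KO cells at PP242, edgeR called 3888 of 19327 transcripts (20.1%), 1979 higher (10.2%) and 1909 lower (9.88%) in EIF4A1 KO. DESeq2 called 756. All 10 largest upward and all 10 largest downward differences from naive cells were called in the same direction here. ENST00000323963.10 was higher than in EIF4A2 KO cells by 3.39 log2 units (SE 0.093) and ENST00000224784.10 by 2.04 (SE 0.16), against 2.36 and 1.74 from naive cells. ENST00000371959.7 differed by -3.13 (SE 0.16) and ENST00000293831.13 by -2.12 (SE 0.071), against -3.05 and -2.32.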

How the data were processed

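The authors deposited raw counts per Ensembl transcript, 1 file per library, with a length per transcript that was used only for ranking. CASAVA 1.8, STAR 2.7.0a and hg38 are named in the submitters' processing notes. The counting tool and annotation are not given in the sources used here. A read could be counted in several transcripts, so rows with equal counts in all 31 files were collapsed (94734 transcripts with counts to 77343). In order of total count, 1 transcript per locus was then kept: a row was dropped when its log2 CPM (pseudocount 0.5) correlated at 0.9 or more with a kept row within 10 rows. That left 35504 transcripts, and loci are approximate. The members, the lists and the rule for named transcripts (the largest differences among called, abundant transcripts; 2 in each direction without gene names) were chosen with earlier results of these data known. The PP242-sensitive set was added after the files had been seen.

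Tests used edgeR 4.0.16 in R 4.3.3: TMM scaling, filterByExpr (minimum count 10, minimum total 15), glmQLFit and glmQLFTest, two-sided, adjusted over all transcripts of a comparison. Each SE is the absolute log2 difference divided by the square root of the F statistic of the test. The code was tested on simulated data. DESeq2 1.42.0 was an alternative. Each dose had 1 library per line. In comparisons of lines under PP242 the spread is therefore that left after the dose term. The change between treatments, footprints beyond RNA and the choice of the PP242-sensitive set had no dose term. There the 1 and 10 µM libraries of a line were treated as replicates of PP242. The labels do not say that libraries came from separate cultures, and the p-values may measure technical spread. Printed CPM are scaled over the 12 profiling libraries or over each other assay. The planned gene lists, markers and start-site motifs could not be matched and were left out.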

Additional observations from a re-analysis of the deposited data

Results flagged for a closer look

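The EIF4A1 KO minus naive difference in footprints was not the same in DMSO and under PP242 for 1256 transcripts, by a test of the difference between treatments (edgeR, 8 libraries). These were 760 upward and 496 downward. None of the 4 named transcripts was among them: their changes between treatments were 0.06, 0.32, -0.49 and -0.07 log2 units, with edgeR adjusted p-values of 0.867, 0.506, 0.412 and 0.768 for ENST00000323963.10, ENST00000224784.10, ENST00000371959.7 and ENST00000293831.13. No group had the 4 libraries that a check for an outlying library needs.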

How the results depend on the processing

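All 47 refits of the 4 named transcripts under PP242 that gave a value kept the direction and the call. The 4 were chosen by their difference in libraries that these refits reuse, so this is no separate check. Counts of calls moved more. For EIF4A1 KO against naive under PP242 (1236), DESeq2 gave 139, no replicate block (no dose term) 2005, all distinct transcripts 5495 and the fit of all 12 profiling libraries 2440; leaving out 1 library gave 996 to 1643. With DESeq2 the other counts were 538 for the change between treatments, 849 for footprints beyond RNA, 1810 in DMSO, 5441 in RNA-seq and 756 against EIF4A2 KO. PP242 at 10 µM alone gave 618 for the change between treatments and 67 for the PP242-sensitive set. Leaving out 1 library gave 616 to 1383 for the change between treatments and 83 to 142 for the set in it. It gave 788 to 1320 for footprints beyond RNA, 2546 to 3988 in DMSO (lowest without EIF4A1 KO DMSO replicate 1), 7411 to 8280 in RNA-seq and 2726 to 3239 against EIF4A2 KO. Without RNA-seq EIF4A1 KO replicate 1 or 2, footprints beyond RNA gave 934 and 963. The lone library of a line is then assumed to vary like the others. For EIF4A1 KO against naive under PP242, the refits without 1 library also had no dose term. Their counts go beside the 2005 calls without that term. The set's median under PP242 stayed between 0.05 and 0.26 over these refits.

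The change between treatments of ENST00000323963.10, which was not called, reversed at 10 µM alone (-0.30), without naive DMSO replicate 1 (-0.09) and without the naive 1 µM library (-0.28), and was called at 1 µM alone (0.40). Leaving out 1 library gave -0.28 to 0.39. That of ENST00000293831.13 reversed without EIF4A1 KO DMSO replicate 2 (0.053), and leaving out 1 library gave -0.18 to 0.053. The cause was not tested. A replicate block gave 969, 1019, 4452 and 8997 calls for the change between treatments, footprints beyond RNA, DMSO and RNA-seq. Same-numbered libraries share only a number: their deviations correlated at -0.05 in DMSO and -0.14 in RNA-seq, where the crossed replicate block gave 9887 calls. The deviations at the 2 doses correlated at -0.13 between the lines. The longest transcript was taken per locus, since genes were not matched, and gave 1588 calls.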

Other observations

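The naive and EIF4A1 KO lines were also compared under PP242 by how transcripts behaved in the LARP1 knockdown inputs, which are total lysates of SBP-eIF4A1 cells after 72 h of siRNA and share no library with the footprints. The 6080 abundant transcripts were split into 5 equal groups by the change of input mRNA after LARP1 siRNA. In the group with the most positive change, 166 of 1216 transcripts were called higher in EIF4A1 KO cells under PP242 (13.7%) and 59 lower (4.85%). Of all 6080, 7.66% were called higher and 6.37% lower. In the group with the most negative change, 76 were called higher and 88 lower, and in the group next to it 47 higher and 96 lower, so that the counts did not run evenly from end to end. The median difference under PP242 was 0.08 log2 CPM in the most positive group and -0.04 in the most negative. In untreated RNA-seq it was 0.14 and -0.07. In the group next to the most negative, the medians were -0.05 under PP242 and 0.01 in RNA-seq, so the 2 did not run together throughout. In DMSO footprints the most positive group was at 0.03 and the most negative at -0.11. The part of mRNA in the result was not tested.

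In 5 groups by baseline translation efficiency, the ratio of footprints to mRNA in naive DMSO cells, values are given for comparison. The median differences under PP242 lay between -0.03 and 0.02 log2 CPM, and 6.66% to 8.39% of transcripts were called higher. In 5 groups by enrichment with SBP-eIF4A2 the medians under PP242 lay between -0.02 and 0.0015, while in DMSO they ran from 0.16 in the least enriched group to -0.11 in the most enriched.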
